A study of Homo sapiens with 6 samples.

Results

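Transcripts of 8 genes whose products remove phosphate from histidine, carry it or bind NME2 were followed in A549 cells after NME2 was silenced. They were the phosphatase genes PHPT1, LHPP and PGAM5, the ion channel gene KCNN4, the G protein subunit genes GNB1 and GNB2, the enzyme gene ACLY and the integrin adaptor gene ITGB1BP1. Every probe set that the array annotation assigned to 1 of these symbols alone was taken, which gave 16 of 54613 probe sets and 8 of 19775 named genes. On these arrays a transcript is read by a set of short probes, whose combined brightness is the signal. A549 is a human lung adenocarcinoma cell line. Total RNA was hybridised to 6 arrays, 3 from NME2-depleted cells, transfected with a small interfering RNA (siRNA) duplex against NME2, and 3 from cells given control duplexes. Silencing was transient. The series text and the methods credit the siRNA to different suppliers, and its dose, its sequence and the time of harvest were not stated in what was read here. The arrays of a group are called biological replicates, but no source describes separate cultures. The p-values therefore cover only the spread among these 6 samples, part of which may be technical.

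Histidine phosphorylation is an acid-labile protein modification. NME2 is a nucleoside diphosphate (NDP) kinase, which moves phosphate between nucleotides through a phosphorylated histidine in its own active site and can pass that phosphate to histidines of other proteins. The channel KCNN4, the G protein beta subunit GNB1 and the enzyme ACLY are described as carrying phosphohistidine that NDP kinases can place or that PHPT1 can remove. The arrays measured messenger RNA, so neither protein nor phosphohistidine was observed.

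The silenced transcript was strongly reduced. The signal of the NME2 probe set, which the read-through transcript NME1-NME2 shares, was 1920, 3676 and 3216 on the NME2-depleted arrays and 17862, 19389 and 21044 on the control arrays. The log2 difference was -2.78 (SE 0.19, limma adjusted p = 0.00032), or 6.85-fold lower. All 5 epithelial markers of A549 cells and all 3 of its stress-response enzymes chosen as markers were above the brightness filter, a signal of 71.7, which is the median over all probe sets. Of the leukocyte, fibroblast and endothelial markers 2 of 5, 3 of 5 and 1 of 4 were above it, with summed signals of 333.0 to 476.0, 756.1 to 931.0 and 277.9 to 355.8 on the NME2-depleted arrays and 416.8 to 469.5, 595.5 to 767.3 and 200.6 to 303.8 on the control arrays. The epithelial markers summed to between 47722 and 52652 on the NME2-depleted arrays and to between 50142 and 56463 on the control arrays. Median signals of whole arrays were 75.7 to 85.2. The ratio of 3' to 5' signal of ACTB, a sign of RNA quality, was 1.326 to 1.396 on the NME2-depleted arrays and 1.198 to 1.305 on the control arrays, so it was higher in every depleted array, whereas that of GAPDH overlapped (0.985 to 1.064 on the NME2-depleted and 0.970 to 1.021 on the control arrays). The part of RNA quality or of other cell types in the values below was not tested. In cultured cells a lower signal can come from fewer expressing cells or from less RNA per cell, which cannot be told apart here.

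None of the 8 genes changed past the threshold when NME2 was silenced. Of the 16 probe sets 14 were above the brightness filter and were tested, and 0 had a limma adjusted p under 0.05, where 0.396% of all 27307 tested probe sets did (0.278% lower and 0.117% higher). At an unadjusted p under 0.05 there were 3, those of KCNN4, ACLY and ITGB1BP1, which is 21.4% of the 14 beside 12.9% of all. After adjustment the methods' t-test called 0 of all 27307 probe sets, and so necessarily 0 of the 14. At an unadjusted p under 0.05 it had 2 of the 14, beside 3065 of the 27307. The 3 NME2-depleted arrays lay on 1 side of the 3 control arrays in 5 of the 14, 1 higher and 4 lower (35.7%, beside 18.6% of all, or 9.66% higher and 8.91% lower), and these 5 came from 4 genes, since 2 of them measure ACLY. The median log2 difference of the 14, NME2-depleted minus control, was -0.04, beside 0.01 for all tested probe sets, and the median size regardless of sign was 0.07, beside 0.14. Most of the 14 were far brighter than the filter, with SEs from 0.06 to 0.17, beside a median SE of 0.15 over all. Probe sets of like brightness were not compared, so the smaller size is not read as a trait of these genes. The largest differences, those of KCNN4 and LHPP, were below 0.42, the size that 1 probe set in 10 exceeded (the 90th percentile of all).

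**Figure D1:**
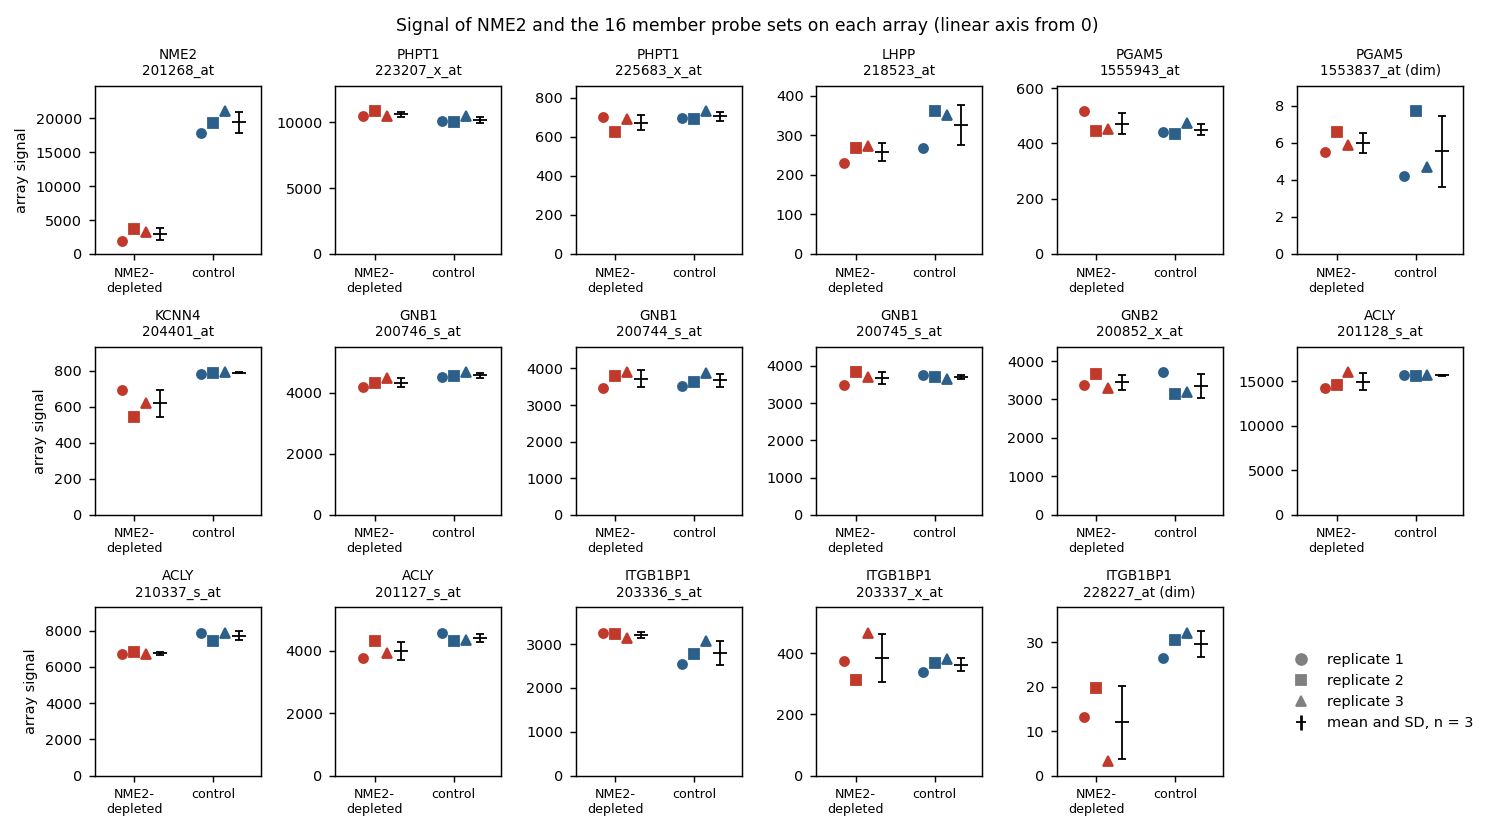
Signal of NME2 and of the 16 member probe sets on each array. The vertical axes are linear array signals that start at 0, each point is an array (NME2-depleted left, control right, a marker shape for each replicate number), with the group mean and SD (n = 3) drawn beside the points. NME2 fell to a mean of 2937, against 19432 in control cells, while KCNN4 averaged 619.2 in NME2-depleted and 789.6 in control cells, and "(dim)" marks the 2 probe sets under the brightness filter.

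**Figure D2:**
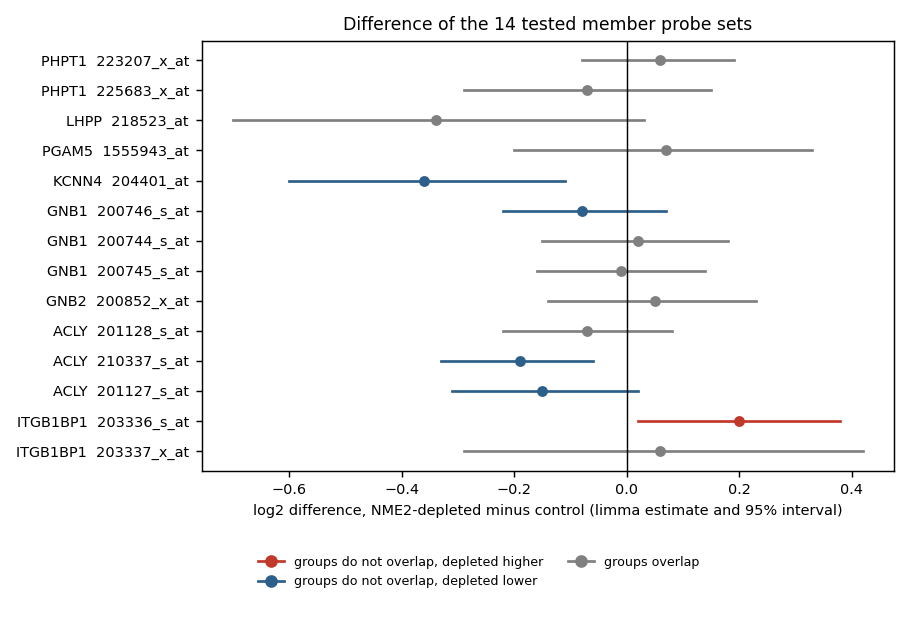
Log2 difference, NME2-depleted minus control, of the 14 tested member probe sets. Points are limma estimates and lines their 95% intervals. Blue marks the 4 probe sets in which every NME2-depleted array was lower than every control array, red the 1 in which every one was higher, and grey those whose groups overlapped.

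None of the 3 histidine phosphatases passed the threshold, and differences between them were not tested. PHPT1, the phosphohistidine phosphatase that acts on KCNN4, GNB1 and ACLY, was bright. Its probe set 223207_x_at had signals of 10519, 10843 and 10467 in NME2-depleted cells and 10110, 10054 and 10469 in control cells. The lowest depleted array was level with the highest control array, and the log2 difference was 0.06 (SE 0.06, 95% interval -0.08 to 0.19, limma adjusted p = 0.753). The dimmer PHPT1 probe set 225683_x_at, with 702.1, 627.1 and 691.3 in NME2-depleted cells and 695.1, 690.8 and 731.0 in control cells, had a difference of the opposite sign (-0.07, interval -0.29 to 0.15, adjusted p = 0.825). Both carry the suffix _x_at, which Affymetrix gives to probe sets that may also bind other transcripts.

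LHPP encodes a phosphatase of phosphohistidine and phospholysine that is described as a tumour suppressor in the liver of mice. Its only probe set had signals of 230.2, 268.3 and 271.8 in NME2-depleted cells and 268.7, 360.2 and 349.9 in control cells. The depleted arrays were lower on average, but control replicate 1 lay among them. The mean was 256.8 ± 23.1 in NME2-depleted cells and 326.3 ± 50.1 in control cells (SD, n = 3 each), a log2 difference of -0.34 (SE 0.17, interval -0.70 to 0.03, limma adjusted p = 0.424). Of the 14 intervals this one reached farthest from 0, to -0.70.

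PGAM5 is a phosphatase of the mitochondrial membrane that removes phosphate from the active-site histidine of NME2. Its probe set 1555943_at had signals of 515.7, 445.7 and 453.1 in NME2-depleted cells and 440.4, 435.6 and 474.2 in control cells. NME2-depleted replicate 1 alone stood above the control arrays, and the difference was 0.07 (SE 0.12, interval -0.20 to 0.33, limma adjusted p = 0.866). Without that array it was -0.00, just below 0. The other PGAM5 probe set, 1553837_at, was not tested because it was dim, at 5.5, 6.6 and 5.9 in NME2-depleted cells and 4.2, 7.7 and 4.7 in control cells.

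KCNN4 had the smallest p of the 14 in the limma fit, while in the methods' t-test ACLY 210337_s_at did. KCNN4 encodes the calcium-activated potassium channel KCa3.1, which NME2 activates in human T cells by phosphorylating a histidine in its C-terminal tail and which PHPT1 turns off again. The signal was 691.4, 545.4 and 620.9 in NME2-depleted cells and 785.7, 790.4 and 792.8 in control cells. The depleted arrays were all lower and spread more widely than the control arrays, which lay close together. The mean was 619.2 ± 73 in NME2-depleted cells and 789.6 ± 3.61 in control cells (SD, n = 3 each), which is 1.28-fold lower. The log2 difference of -0.36 (SE 0.11, interval -0.60 to -0.11) had an unadjusted limma p of 0.00855 and an adjusted p of 0.205, rank 1136 of the 27307. The exact two-sided permutation test gave 0.1, the smallest p that 3 against 3 arrays allow. Among all tested probe sets 14.2% had a larger difference in size. Without NME2-depleted replicate 2, the lowest array, the difference was -0.27, and it was -0.44 without NME2-depleted replicate 1.

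ACLY, the cytosolic enzyme that makes acetyl-CoA from citrate for lipid synthesis and histone acetylation, passes through a phosphohistidine in its catalytic cycle. All 3 of its probe sets were on average lower after silencing, 0 of them past the threshold. The probe set 210337_s_at had 6712, 6826 and 6682 in NME2-depleted cells and 7860, 7419 and 7840 in control cells, so the groups did not overlap. Its log2 difference was -0.19 (SE 0.06, interval -0.33 to -0.06, unadjusted limma p = 0.0104, limma adjusted p = 0.222, exact permutation p = 0.1), or 1.14-fold lower. The probe set 201127_s_at had 3746, 4313 and 3913 in NME2-depleted cells and 4557, 4318 and 4348 in control cells, where NME2-depleted replicate 2 was nearly level with control replicate 2 (difference -0.15, adjusted p = 0.44). The brightest ACLY probe set, 201128_s_at, had 14241, 14531 and 16010 in NME2-depleted cells and 15658, 15622 and 15665 in control cells. There NME2-depleted replicate 3 was above all control arrays, and the difference was -0.07 (interval -0.22 to 0.08, adjusted p = 0.712). The mean of the 3 probe sets differed by -0.14 (limma adjusted p = 0.326).

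NME2 also binds DNA, and G-rich promoter elements are among the sites described for it, so the promoters of KCNN4 and ACLY, the members with the smallest p in the limma fit, are shown. Each window runs from 250 bases before the transcription start to 50 after it, from RefSeq on GRCh38.p14, read 5′ to 3′ on the strand of the gene. Capitals mark the motifs GGGAGGG, also GGGTGGG, also GGGCGGG, on either strand, and matches may overlap. The promoters and motifs were chosen after the values were seen. These motifs are not the consensus that the authors derived from NME2 binding sites in A549 cells. Neither that consensus nor those binding sites were searched here.
KCNN4: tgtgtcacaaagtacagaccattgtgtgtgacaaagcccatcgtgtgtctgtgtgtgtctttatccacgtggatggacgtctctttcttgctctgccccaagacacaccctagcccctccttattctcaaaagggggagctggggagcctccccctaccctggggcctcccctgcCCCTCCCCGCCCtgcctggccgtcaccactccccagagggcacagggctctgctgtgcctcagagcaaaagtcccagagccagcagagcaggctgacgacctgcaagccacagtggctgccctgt
ACLY: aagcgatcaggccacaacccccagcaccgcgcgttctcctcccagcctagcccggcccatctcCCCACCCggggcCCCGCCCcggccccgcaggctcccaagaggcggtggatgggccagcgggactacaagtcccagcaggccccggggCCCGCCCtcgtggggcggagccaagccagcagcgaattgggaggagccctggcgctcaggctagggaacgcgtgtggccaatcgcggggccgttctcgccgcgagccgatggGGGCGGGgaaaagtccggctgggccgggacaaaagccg
The KCNN4 window lies at chr19:43780924-43781223 and that of ACLY at chr17:41918973-41919272, both on the minus strand. The KCNN4 window held 1 GGGAGGG and 1 GGGCGGG, which overlap, and the ACLY window held 1 GGGTGGG and 3 GGGCGGG. A second ACLY start in the table, with a window at chr17:41918902-41919201, held 3 GGGCGGG. All 8 members matched the table, with 10 windows, and 7 of the genes, all but ITGB1BP1, held at least 1 of these 3 motifs. G and C made up 60.7 to 77.3% of the bases of these windows, a share not computed for all promoters. The count of members is by gene, whereas the shares that follow are by window. Of all 35116 promoter windows of this length 53.3% held at least 1 of the 3, with 26.6% for GGGAGGG, 19.6% for GGGTGGG and 33.1% for GGGCGGG. These are matches of letters, and binding was not measured on these arrays.

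GNB1 and GNB2 encode closely related beta subunits of heterotrimeric G proteins. NME2 forms a complex with the beta-gamma dimer and phosphorylates a histidine of the beta subunit, from which the phosphate can reach a guanine nucleotide on the alpha subunit. The 3 probe sets of GNB1 gave differences close to 0. In 200746_s_at the signals were 4189, 4320 and 4487 in NME2-depleted cells and 4510, 4538 and 4671 in control cells. All depleted arrays were lower there, by little (difference -0.08, SE 0.07, interval -0.22 to 0.07, limma adjusted p = 0.668). In 200744_s_at and 200745_s_at the groups overlapped, with differences of 0.02 (interval -0.15 to 0.18) and -0.01 (-0.16 to 0.14). GNB2 is measured by 1 probe set, 200852_x_at, which by its suffix may also bind other transcripts. It had 3366, 3676 and 3309 in NME2-depleted cells and 3709, 3147 and 3184 in control cells. Control replicate 1 was the highest array, the groups overlapped, and the difference was 0.05 (SE 0.08, interval -0.14 to 0.23, adjusted p = 0.86).

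ITGB1BP1 encodes the adaptor ICAP-1, which binds the tail of integrin beta 1 and to which NME2 binds. Its probe set 203336_s_at was the 1 member probe set in which all NME2-depleted arrays were higher. It had 3251, 3242 and 3130 in NME2-depleted cells and 2554, 2764 and 3082 in control cells. Control replicate 3 was close to the depleted arrays, and control replicate 1 was the lowest. The log2 difference of 0.20 (SE 0.08, interval 0.02 to 0.38) had an unadjusted limma p of 0.0323 and an adjusted p of 0.337. Within replicate numbers it was 0.35, 0.23 and 0.02. The probe set 203337_x_at overlapped between groups, with 375.1, 310.6 and 465.1 in NME2-depleted cells and 338.7, 367.4 and 381.9 in control cells (difference 0.06, adjusted p = 0.909). The third ITGB1BP1 probe set, 228227_at, was dim and not tested. It had 13.1, 19.6 and 3.2 in NME2-depleted cells and 26.4, 30.4 and 32.0 in control cells. All depleted arrays were lower there, opposite to the other probe sets of the gene, and the log2 difference was -1.66, or -1.01, -0.63 and -3.32 within replicate numbers 1, 2 and 3. Fitted with no filter its adjusted p was 0.593, and with an offset of 16 added before log2 the difference was -0.75 (adjusted p = 0.529).

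**Figure D3:**
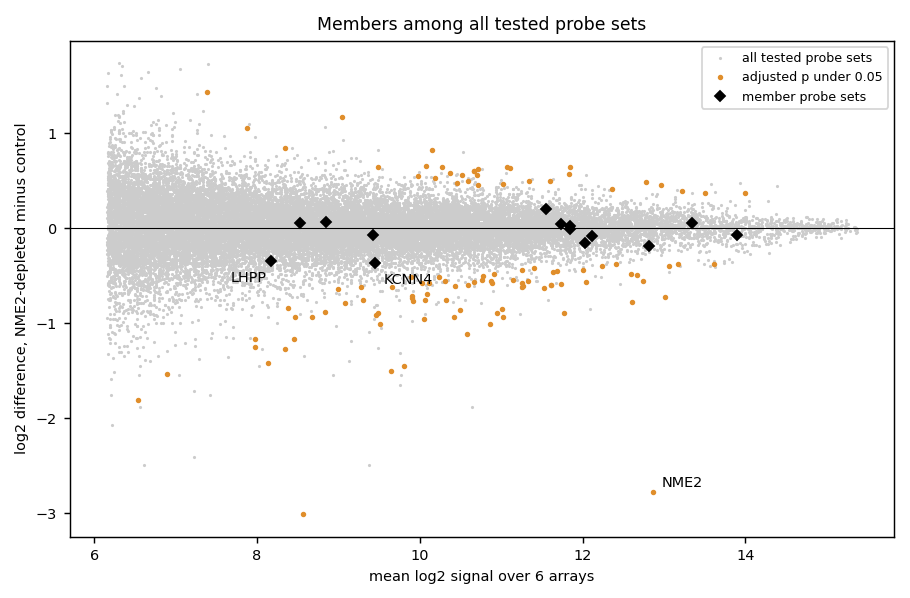
The 14 tested member probe sets among all 27307. Brightness, as log2 signal averaged over 6 arrays, runs along the horizontal axis, and the vertical axis gives NME2-depleted minus control on the log2 scale. Black diamonds are members, orange points passed an adjusted p of 0.05, and NME2 lies at -2.78, while KCNN4 and LHPP, the members farthest from 0, lie at -0.36 and -0.34.

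Genes around the members were counted in 8 lists, each gene by its brightest tested probe set. The lists were drawn up with earlier results of these data known, so their counts beside all genes are a description. The lists name 123 genes, among them NME2, which was left out of the counts that follow. Of the listed genes 91 were measured, 0 were higher and 1 was lower past the threshold (limma adjusted p under 0.05), beside 0.540% of all 12406 genes. Including that 1, 11 of the 91 had an unadjusted limma p under 0.05, beside 15.0% of all genes. In 9 of the 91 every NME2-depleted array was higher than every control array and in 14 every one was lower, beside 20.6% of all genes in either direction. The 1 gene was RAP1B, a small GTPase that acts through KRIT1 and talin on integrins, in the list of ITGB1BP1 partners. It had signals of 4987, 5372 and 5387 in NME2-depleted cells and 7410, 7463 and 7102 in control cells. The groups were far apart, with a mean of 5249 ± 227 in NME2-depleted cells and 7325 ± 195 in control cells (SD, n = 3 each). RAP1B fell, to 1.4-fold lower in NME2-depleted than in control cells (log2 difference -0.48, SE 0.07, interval -0.63 to -0.34, adjusted p = 0.0192). The call was lost when NME2-depleted replicate 1, 2 or 3 or control replicate 2 was left out (adjusted p = 0.0829, 0.0557, 0.0616 and 0.0842), with differences of -0.45, -0.50, -0.50 and -0.47. Its relative RAP1A, chosen after its values were seen, had 3415, 3906 and 3728 in NME2-depleted cells and 3374, 3545 and 3078 in control cells (0.14, adjusted p = 0.492), and whether the relatives differed was not tested.

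The other 14 measured ITGB1BP1 partners did not pass. FERMT2, the kindlin that binds integrin tails, had a difference of 0.23 (adjusted p = 0.252) and HEG1, a receptor for KRIT1, -0.20 (0.447), or -0.11 without NME2-depleted replicate 3. The median of the 15 was 0.00. Integrin beta 1 itself (ITGB1), chosen after its value was seen, had 0.03 (0.916).

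In the list of KCNN4 relatives and regulators 5 of 6 measured genes had a lower mean, 0 passed, and the median was -0.13 (limma). PIK3C2B, the lipid kinase that acts upstream of NME2 on this channel in T cells, had 484.3, 733.3 and 602.2 in NME2-depleted cells and 757.9, 773.7 and 1143 in control cells. The groups did not overlap, but control replicate 3 was far above the others (difference -0.55, SE 0.18, adjusted p = 0.232). Without that array the PIK3C2B difference was -0.36, and without NME2-depleted replicate 2 it was -0.70. STIM1, the calcium sensor of the endoplasmic reticulum, had 353.9, 339.3 and 334.3 in NME2-depleted cells and 361.9, 378.2 and 544.4 in control cells (-0.30, adjusted p = 0.489). Control replicate 3 was again the highest, and without it the STIM1 difference was -0.11. Another STIM1 probe set was dim, with all control arrays under the brightness filter, and passed it only through the NME2-depleted arrays, so no difference is read from it. KCNMA1, the large-conductance potassium channel, had -0.13 (0.594), and its other tested probe set 0.22 (0.824). Leaving out NME2-depleted replicate 2 or 3 gave -0.21 or -0.04 for the brighter KCNMA1 probe set.

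Among 18 measured G protein genes 0 passed (limma), 10 had a higher and 8 a lower mean, and the median was 0.02. The gamma subunit GNG10 had 6112, 6274 and 6412 in NME2-depleted cells and 5464, 4882 and 5456 in control cells, with no overlap (0.25, SE 0.07, adjusted p = 0.153). The alpha subunit GNA12 had 0.26 in both of its probe sets (adjusted p = 0.197 in the brighter). PDCL, a chaperone of beta-gamma assembly, had -0.35 (0.209), and its other probe set 0.22 (0.612). Of the other beta subunits, chosen after their values were seen, GNB3 was dim, at 108.5, 109.3 and 107.3 in NME2-depleted cells and 69.4, 85.0 and 66.6 in control cells (0.57, adjusted p = 0.389). Control replicates 1 and 3 of GNB3 lay under the filter signal of 71.7. GNB4 had 0.16 and GNB5 -0.06, with adjusted p-values of 0.479 and 0.777.

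In the list around ACLY 10 of 13 measured genes had a lower mean, against 49.8% of all genes, 0 passed (limma) and the median was -0.12. ACACA, which makes malonyl-CoA, had 3542, 3319 and 2498 in NME2-depleted cells and 3574, 3683 and 3852 in control cells (-0.26, adjusted p = 0.369), while its other probe set had 0.31 (0.274). NME2-depleted replicate 3 was the lowest array of the brighter ACACA probe set, and without it the difference was -0.11. ACSS2, which makes acetyl-CoA from acetate, had -0.25 (0.376) and the aconitase ACO1 -0.20 (0.312). SUCLA2, a subunit of succinyl-CoA synthetase, had -0.19 (0.402) and fatty acid synthase (FASN) -0.01 (0.986), both chosen after their values were seen. The ACSS2 difference was -0.16 without NME2-depleted replicate 1.

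The phosphatase relatives and the partners of PGAM5 held 0 of 9 and 0 of 12 changed genes (limma), with medians of 0.04 and -0.03. UBASH3B, a tyrosine phosphatase of the same fold as PGAM5, had 2268, 2168 and 2180 in NME2-depleted cells and 1860, 1872 and 1916 in control cells. All depleted arrays were higher (0.23, SE 0.07, adjusted p = 0.208), and its other 3 tested probe sets had differences of 0.23, 0.25 and 0.35, with adjusted p-values of 0.37, 0.366 and 0.125. BPGM, an enzyme of the phosphoglycerate mutase family, had 0.19 (0.479) and the phosphatase PGP -0.11 (0.573). Among PGAM5 partners, KEAP1, the repressor of NRF2, had -0.19 (0.391), the survival protein gene BCL2L1 -0.31 (0.391) in its brightest probe set and the caspase inhibitor gene XIAP 0.12 (0.558). The BCL2L1 value was -0.19 without NME2-depleted replicate 3 and -0.18 without control replicate 3, and its other tested probe sets had -0.20 and -0.07. The 7 tested probe sets of XIAP ran from -0.09 to 0.41, and the brightest had 0.05 without NME2-depleted replicate 2.

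The 4 measured relatives of NME2 and the 14 measured genes of other described NME1 or NME2 partners held 0 calls (limma), with medians of -0.06 and -0.02. NME4, the mitochondrial NDP kinase, had 5462, 5380 and 5485 in NME2-depleted cells and 5782, 6190 and 6665 in control cells, with no overlap (-0.19, adjusted p = 0.296). NME1 had -0.08 (0.676) and NME3 0.13 (0.782). Leaving out NME2-depleted replicate 2 or 3 gave 0.02 or 0.21 for NME3, and leaving out control replicate 1 or 3 gave -0.03 or 0.28. Among the partners, PRUNE1, an exopolyphosphatase that binds NME1, had -0.19 (0.424), the mitotic kinase AURKA -0.26 (0.479) and the dynamin DNM1 -0.09 (0.639). The AURKA value was -0.17 without NME2-depleted replicate 3, -0.12 without control replicate 1 and -0.39 without control replicate 3. The other tested AURKA probe set had 0.00 (0.997), and the 4 of PRUNE1 ran from -0.23 to 0.14. In this list 13 of 27 genes were not tested.

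**Figure D4:**
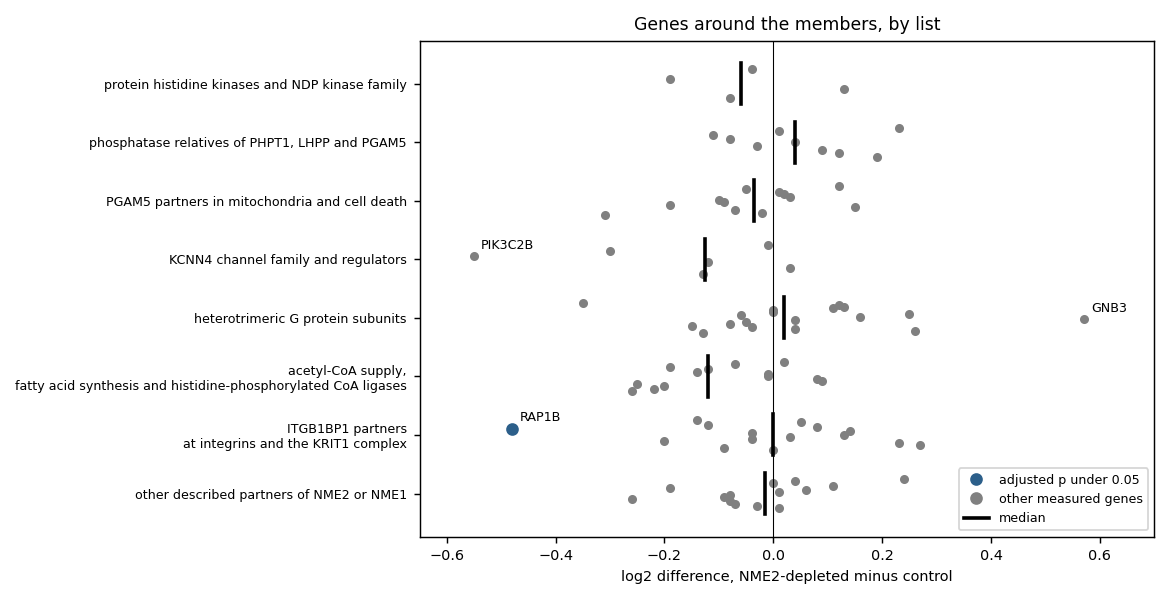
Log2 difference, NME2-depleted minus control, of the 91 measured genes in 8 lists around the members. Each point is a gene by its brightest tested probe set, the thick bar is the list median, and the blue point, RAP1B at -0.48, is the 1 gene past an adjusted p of 0.05. PIK3C2B at -0.55 and GNB3 at 0.57 are also named, and without control replicate 3 PIK3C2B was at -0.36. GNB3 was dim, with control replicates 1 and 3 under the filter signal of 71.7.

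Across the 6 arrays, the patterns most like each member's brightest probe set were found by Pearson correlation of log2 signals, as a description. The closest genes were GJD2 for PHPT1 (0.996), FBL for LHPP (0.988), MIB2 for PGAM5 (0.992) and PLEKHA6 for KCNN4 (0.996). They were MID1 for GNB1 (0.997), DES for GNB2 (0.987), TSNARE1 for ACLY (0.982) and ELOA-AS1 for ITGB1BP1 (0.998). The second closest were UNK, NT5C, PXDN, KIAA0930, CNFN, CHMP6, WDR37 and NFU1 in the same order of members. Correlations this high are easily reached with 6 arrays, and between 10 and 47 of 12406 genes correlated above 0.95 with a given member. Whether any of these genes is regulated together with a member was not tested. No member was among the closest genes of another.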

How the data were processed

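The authors hybridised biotin-labelled cRNA from each RNA to an Affymetrix HG-U133 Plus 2.0 array. The file deposited by the authors holds 1 intensity for each probe set, linear and not logged, made with GCOS 1.1.1 according to the submitters' processing notes. The trimmed mean was 500.06 to 500.07 on all 6 arrays, so the authors had scaled them alike, which hides a shift shared by all transcripts. Detection calls and scans were not used here. At most 0.297% of values were identical in a pair of arrays.

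After removal of 62 control probe sets, signals were floored at 1, which affected 0.327% of them, and log2 transformed. The 27307 probe sets at or above the median mean log2 signal entered a limma fit (version 3.58.1, R 4.3.3, lmFit and eBayes with an intensity trend) of NME2-depleted against control, with Benjamini-Hochberg adjustment over all of them and a two-sided threshold of 0.05. Folds were computed from mean log2 values, so they differ slightly from ratios of mean signals. On simulated data for this comparison, with 200 of 27307 probe sets changed, the fit found 18.0% at a 1.5-fold change, 60.0% at 2-fold and 92.5% at 4-fold. Gene symbols were those given with the platform annotation, which bears the year 2016, and looking them up by gene identifier changed 0. Whether the symbols themselves date from that year was not checked. No genomic position of a probe set is given, since no build is named for that annotation. Arrays have no read depth, and 3 per group limits the precision. Groups and replicate numbers came from the sample titles.

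Named were all member probe sets, NME2, NME1, and from each list the genes past the threshold and up to 3 of lowest p, and for each member the 2 genes most correlated with it. A gene outside this rule is marked as such where it appears. Members and lists were chosen with earlier results of these data known. The alternatives were other array scalings, an offset, other filters, other variance models, a replicate block, each array left out, the methods' t-test, shared probe sets left out and a mean over probe sets.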

Additional observations from a re-analysis of the deposited data

How the results depend on the processing

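The count of member probe sets past the threshold stayed at 0 under every alternative run, except that the methods' t-test at an unadjusted p under 0.05 gave 2. With no intensity trend and with the adjusted t-test 0 of all probe sets passed, so the 0 for members there shows nothing about them. Only 3 member probe sets were tested without shared probe sets, and 12 with the filter at the 75th percentile. KCNN4 stayed between -0.44 and -0.27 (adjusted p from 0.14 to 0.434) and ACLY 210337_s_at between -0.24 and -0.18 (0.0942 to 0.445). The NME2 difference of -2.78 missed the threshold with no intensity trend (adjusted p = 0.228) and with the methods' t-test (0.204), and lay between -2.96 and -2.50 when 1 array was left out. Over all probe sets 108 passed, against 30 with no filter, 192 with a filter at the 75th percentile, 0 with no intensity trend (3130 at an unadjusted p under 0.05), 61 without shared probe sets, 0 with the adjusted and 3065 with the unadjusted t-test, and 23 with no filter and an offset of 16, which was chosen after seeing the data. It was 19 to 70 when 1 array was left out. RAP1B, the 1 gene called in the lists, was also not called (a count of 0) with no intensity trend, the adjusted t-test, or no filter and an offset, and could not be tested without shared probe sets. Leaving out an array gave 0 or 1. Its adjusted p ranged from 0.00768 to 0.249. With 1 value per gene as the mean of its probe sets, 28 genes passed, against 67. Median centring moved the median of all probe sets to -0.04 and left 84.3% of calls lower, against 70.4%.

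Titles share replicate numbers, and no source says what a number stands for. Deviations from the group means correlated at 0.11, 0.08 and 0.07 within numbers, so the samples were not treated as paired, although every array correlated best with its own number. With the replicate block 464 probe sets passed, and 0 member probe sets.

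Among the member probe sets and the genes named by the rule above, signs turned only for small differences, the largest being 0.13 for NME3. With median centring GNB1 200744_s_at was -0.03 and GNB2 -0.00. Leaving out 1 array gave GNB1 200744_s_at -0.02 to 0.07, GNB1 200745_s_at -0.04 to 0.02, PGAM5 1555943_at -0.00 to 0.10, ITGB1BP1 203337_x_at -0.09 to 0.21 and NME3 -0.03 to 0.28. The mean of the PHPT1 probe sets was -0.01. Signal over background and 3 arrays per group limit what could be seen, with a median SE of 0.15 over all tested probe sets.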
